A study of Homo sapiens with 16 samples.

Results

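The comparison described here is medium against high MYC in P493-6 cells that received only the DMSO vehicle, 4 libraries against 4, of the 16 RNA-seq libraries in the series. P493-6 is an immortalised human B cell line of Epstein-Barr virus origin in which a MYC transgene is repressed by doxycycline, and in which EBNA2, a transcription factor of that virus, works only when an oestrogen is present. High MYC controls were grown in plain DMEM with 10% serum, and medium MYC controls in the same medium with 0.1 µg/mL doxycycline and 1 µM β-estradiol, both for 24 h before and during 24 h of DMSO. MYC level, doxycycline, β-estradiol and EBNA2 activity therefore changed together and cannot be told apart in this contrast. The remaining 8 libraries received 100 nM IMP1088, an inhibitor of N-myristoyltransferases, and are used only to ask whether the same difference was present with the drug. The labels call all 16 libraries by 1 cell line and do not say that replicates were separate cultures, so p-values measure the spread between these samples, which may be technical. Genes entered by a single rule, a mean normalized count of at least 10 over the 8 control libraries, which 13686 of 58051 identifiers met.

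MYC is a transcription factor that, bound with its partner MAX, acts on E-box sequences near gene starts and is known for raising genes of ribosome production, translation, nucleotide synthesis and mitochondria. EBNA2 does not bind DNA itself; it is brought to promoters and enhancers by the cellular protein RBPJ, also the DNA-binding partner of Notch, and drives resting B cells into proliferating lymphoblasts. Lymphoblasts of this kind are known for NF-kappaB activity, surface activation markers and chemokine secretion, whereas P493-6 cells with high MYC and inactive EBNA2 are used as a model of Burkitt lymphoma cells.

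Control libraries held 9153294 to 13858534 reads, with 18899 to 19980 genes above 0 at high MYC and 20340 to 21081 at medium MYC. The gene with most reads took 2.09% to 4.40% of a library. Across tested genes, replicates correlated at r of 0.984 to 0.991 and libraries of different groups at 0.869 to 0.875 on the log2 scale, and the groups parted along a first principal component with 87.3% of the variance. Deposited values are normalized counts, relative within each library, so RNA per cell was not measured, and in bulk samples fewer cells expressing a gene and less RNA per cell cannot be told apart. B cell markers were present in all 8 libraries: the summed level of 6 of them, with MS4A1, CD79A and PAX5 included, was 23822 to 24000 at high MYC and 38767 to 39481 at medium MYC. Of 13 T and NK cell markers, 8 had a mean under 10 and 2 were at 0 in all 8 libraries, with a sum of 95.5 to 110.7 at high and 139.8 to 188.2 at medium MYC. Of 10 myeloid markers, 8 had a mean under 10 and 3 were at 0 throughout, with a sum of 119.2 to 135.9 at high and 265.1 to 290.6 at medium MYC.

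The level of MYC (ENSG00000136997, chromosome 8, 127735434 to 127741434, GRCh38) was checked first, since it names the groups. Its normalized counts were 34376, 32276, 30251 and 29693 in the high MYC controls and 959.6, 904, 1022 and 949 in the medium MYC controls. The lowest high MYC library was far above the highest medium MYC library. The means were 31649 ± 2129.7 and 959 ± 48.7 (SD, n = 4 each), a 33.0-fold difference, and the log2 change was -5.04 (SE 0.05, limma adjusted p = 2.73e-16). A two-sided exact permutation test of 4 against 4 libraries gave p = 0.0286, the smallest value it can give. Reads of the transgene and of the cell's own MYC gene are summed in this value.

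**Figure D1:**
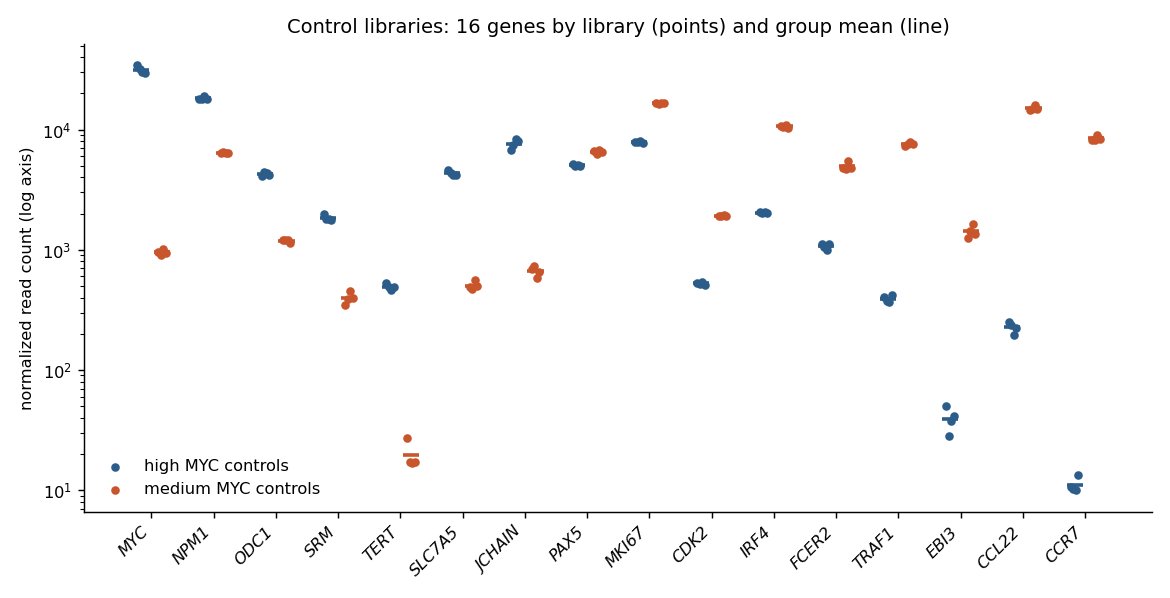
Normalized read counts (log axis) of 16 genes in each control library: points are libraries, short lines are group means, blue is high MYC and orange is medium MYC, n = 4 each. For every gene drawn the points of the groups lie apart, from MYC at the left, 31649 against 958.6 on average, to CCR7 at the right, 11.0 against 8457.

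The MYC network, the proteins that share the partner MAX or act beside it, moved in both directions: 6 of 13 tested genes were higher and 7 lower. MXI1, which encodes a MAX partner that opposes MYC, had counts of 484, 511, 464 and 444 at high MYC and 80.3, 105, 104 and 99.3 at medium MYC. The groups did not overlap, and the log2 change was -2.28 (SE 0.09, limma adjusted p = 4.60e-11). MNT, another MYC antagonist, fell by 1.30 on the log2 scale and MAX itself fell by 0.68. The antagonists MXD1 and MXD3 rose, by 0.76 and 1.17, and MYCL, the MYC relative, rose from 4.57 ± 0.756 to 34.5 ± 6.21 (SD, n = 4 each).

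Between the control groups 10294 genes (75.2%) passed an adjusted p-value of 0.05 in the limma fit; 5275 (38.5%) were higher and 5019 (36.7%) lower at medium MYC. These shares are the background for every count of list members below. The lists were chosen with earlier results of these data known, so such counts are descriptions and not independent tests. Members named besides those the naming rule selects were chosen after their values were seen. At least 2-fold changes were called in 1808 genes higher (13.2%) and 1451 lower (10.6%). Values of the groups did not overlap for 9479 genes (69.3%). The median log2 change over all tested genes was 0.02, and the middle of the distribution lay between -0.48 and 0.51 at its quartiles. Counts of the directions parted with size: at least 4-fold, 700 genes were higher and 274 lower; at least 8-fold, 392 and 66; at least 32-fold, 122 and 3. Quantile normalization gave 1578 genes at least 2-fold higher and 1773 lower, and which direction was more frequent at 2-fold thus depended on the scaling. Of the 3392 genes not called, 3063 had a 95% interval that lay within 2-fold.

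**Figure D2:**
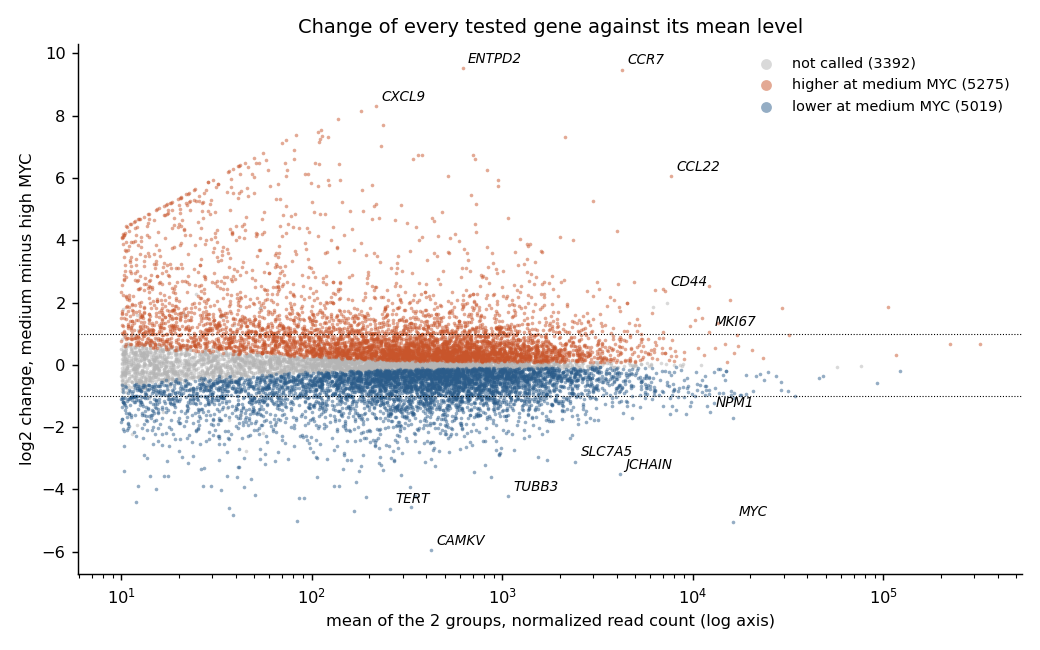
Log2 change (medium minus high MYC) of each of the 13686 tested genes against its mean normalized count (log axis); orange genes were called higher, blue lower and grey not called, and dotted lines mark 2-fold. The upper side reaches further, to 9.53 for ENTPD2 and 9.47 for CCR7, than the lower side, which ends at -5.95 for CAMKV; the slanted upper edge at low means holds genes that were near 0 in high MYC controls.

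Part of that difference in reach lay in genes that were at the detection floor in 1 group. With the floor set at 3 reads in every library, 184 tested genes were at the floor in all high MYC controls and 6 in all medium MYC controls. Such genes passed the filter through the other group alone, so they had to differ, and their folds are lower bounds against the floor (3.07 normalized counts at high and 2.70 at medium MYC, the mean over the group's libraries). Where a list below holds such genes, its count of changed members is in part a consequence of the filter. With floor genes set at these bounds the list medians given below had the same values. ENTPD2, an ectonucleotidase, had at most 1 read in a high MYC control and counts of 1185, 1191, 1409.9 and 1169 in the medium MYC controls, at least 403-fold higher. IL1R2, the decoy receptor of interleukin 1, was at 0 in every high MYC control and at 159, 155, 160.2 and 184 in the medium MYC controls, at least 53.5-fold higher. PRLR, the prolactin receptor, was at least 153-fold higher, ZC3H12C at least 89.5-fold, and the noncoding RNA LINC01094 at least 73.4-fold. EGOT, another noncoding RNA, had at most 1 read in a high MYC control and counts of 217, 238, 199.5 and 206 in the medium MYC controls. In the opposite direction the 4 called genes were MYADML2, at least 8.82-fold lower, CABP1-DT, at least 7.20-fold lower, and 2 genes without a symbol, ENSG00000254590 and ENSG00000280211, at least 8.77-fold and 6.81-fold lower.

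The largest falls besides MYC lay outside the ribosome lists. CAMKV, a kinase-like vesicle protein of neurons, had counts of 814, 802, 821 and 885 at high MYC and 15.6, 12.0, 10.5 and 12.3 at medium MYC. Every medium MYC value was below every high MYC value, and the log2 change was -5.95 (SE 0.11, limma adjusted p = 5.10e-14). TERT (chromosome 5, 1253147 to 1295069), the catalytic subunit of telomerase, had counts of 530.2, 494, 466 and 486 against 27.1, 17.1, 16.6 and 17.2 (log2 change -4.62, SE 0.14, limma adjusted p = 3.58e-12). Among the medium MYC controls library 1 was the highest for TERT. NPW, the precursor of neuropeptide W, went from 162 ± 45.6 to 4.07 ± 1.10 (SD, n = 4 each). On the log2 scale falls were also called for BZW2, a regulator of translation (-4.68), DDN, dendrin (-4.58), SH2D5 (-4.27), KCNJ12, an inward rectifier potassium channel (-4.27), PLD6, a mitochondrial phospholipase (-4.24), and TUBB3, the neuronal beta tubulin (-4.22). TUBB3 was the most abundant of them at high MYC, with counts of 2150.3, 2144, 1882 and 1919, and fell to 97.0, 94.2, 124 and 117. Exons of BZW2, DDN, PLD6 and TUBB3 overlap those of another gene, so their values are uncertain.

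Genes known to be activated by MYC were lower as a group: 47 of 49 were called lower and 1 higher, with a median log2 change of -1.52, and 37 fell at least 2-fold. This list was chosen with earlier results of these data known. It holds TERT and BZW2, named above among the largest falls, so its count is not independent of them. NPM1, a nucleolar chaperone, had counts of 18101, 18100.1, 19037 and 18007 at high MYC and 6359.7, 6479, 6369 and 6375 at medium MYC. The log2 change was -1.52 (SE 0.03, limma adjusted p = 3.92e-14), and the groups were far apart compared with their spread. NCL, nucleolin, fell from 17058 ± 227 to 6839 ± 118 and ODC1, the first enzyme of polyamine synthesis, from 4292 ± 160.1 to 1192 ± 37.4 (SD, n = 4 each). CAD, which starts pyrimidine synthesis, fell by 1.47 on the log2 scale, while LDHA, lactate dehydrogenase, fell by 0.33 and CDK4 fell by 0.41. The single gene called higher was CCND2, cyclin D2, at 5675, 5702, 5708 and 5771 against 13655, 13478, 13635 and 13639 (log2 change 1.25, limma adjusted p = 7.92e-14). TFRC, the transferrin receptor, was not called (log2 change 0.04, 95% interval -0.05 to 0.13) but was called higher with quantile normalization (0.10, limma adjusted p = 0.0440).

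Genes of ribosome production were lower almost without exception. Of 81 ribosome biogenesis genes 80 were lower and none higher, with a median of -1.13, and 50 fell at least 2-fold; NVL missed the threshold (limma adjusted p = 0.0603) and was called lower without high MYC library 4 (-0.15) or medium MYC library 3 (-0.14), with edgeR (-0.13), with factors from the tested genes (-0.13) and with all 16 libraries in the fit (-0.12). NOP16, a nucleolar protein, had counts of 752, 742, 795 and 790.2 at high and 170, 156, 171 and 176 at medium MYC, and RRP9, which binds the U3 snoRNA, had 603, 579, 515 and 562 and 106, 130.1, 149 and 112. Both fell by about the same amount, with log2 changes of -2.19 and -2.19 and no overlap between groups. POLR1B, a core subunit of RNA polymerase I, fell by 1.80, FBL, the rRNA methyltransferase fibrillarin, fell by 1.72 and BOP1 fell by 1.71. All 79 cytosolic ribosomal protein genes were lower, with a median of -0.81, but 7 of them fell at least 2-fold, and the range ran from -1.35 to -0.16. RPL14 had the largest fall, from 7552, 7583, 7666 and 7584 to 2907, 3019.6, 2906 and 3063. Ribosomal protein genes have many near-identical pseudogenes that share their reads, and single values here are uncertain for that reason. Noncoding genes that host snoRNAs, the guides of rRNA modification, were all lower: 22 of 22 tested, 21 of them at least 2-fold, with a median of -1.41. DANCR had counts of 1777, 1752, 1649 and 1622 against 238, 239, 242 and 224 (log2 change -2.84, limma adjusted p = 1.52e-14), and GAS5 fell by 1.41. In the ribosome biogenesis, ribosomal protein and snoRNA host lists 0 members were higher, also at an unadjusted limma p under 0.05 and with edgeR and DESeq2, and the same held for mitochondrial import genes and mitochondrially encoded mRNAs.

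Genes of translation had smaller median changes. Of 45 translation initiation and elongation factors 39 were lower and 4 higher (EIF1, EIF2B2, EIF4G2 and EIF4EBP2), with a median of -0.61. EIF2B2 (0.17) lost its call without high MYC library 3 (0.14) or medium MYC library 1 (0.15), and with DESeq2 (adjusted p = 0.0852). EIF4EBP1, an inhibitor of cap-dependent initiation, had the largest fall of the list, from 513, 468, 411 and 450.4 to 98.0, 85.6, 90.1 and 71.4 (log2 change -2.41), whereas its relative EIF4EBP2 rose by 0.38. Of 22 cytosolic aminoacyl-tRNA synthetases, which load tRNAs with amino acids, 16 were lower and 2 higher, with a median of -0.67. LARS1 fell by 1.50 and VARS1 fell by 1.47; WARS1, which is also known as an interferon-induced gene, rose by 0.83 and HARS1 by 0.18. POLR3G, a subunit of RNA polymerase III, fell by 2.62 and PUS7, a pseudouridine synthase, fell by 2.49.

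**Figure D3:**
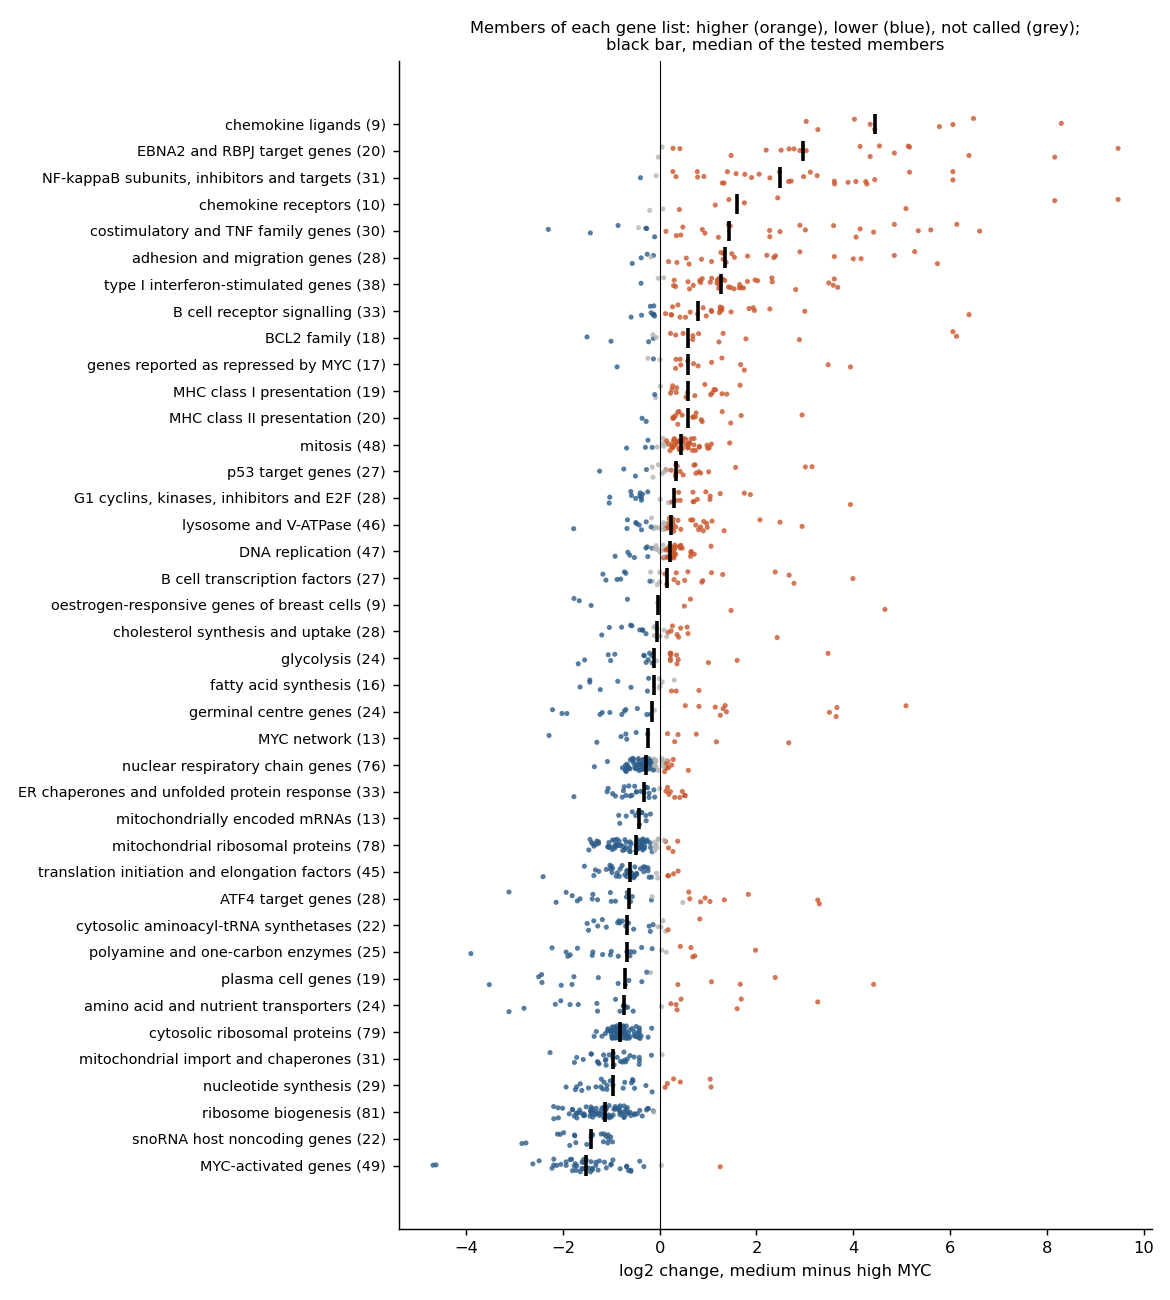
Log2 change (medium minus high MYC) of every tested member of each gene list, sorted by median (black bar), with the number of tested members in brackets; orange points were called higher, blue lower and grey not called. MYC-activated genes (median -1.52), snoRNA hosts (-1.41) and ribosome biogenesis (-1.13) lie at the bottom, and NF-kappaB genes (2.48), EBNA2 and RBPJ targets (2.96) and chemokine ligands (4.44) at the top. The lists were chosen with earlier results of these data known.

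Promoters of protein-coding genes were searched for the E-box CACGTG, the sequence that MYC with MAX is known to bind. The window ran from 250 bases before to 50 bases after the gene start, in RefSeq promoters on GRCh38.p14, and both strands were read (the E-box is the same on both). For a gene with several starts the first one listed was used. Promoters with an E-box, of 4 genes that fell from different roles, are shown with the E-box in capitals, each 5′ to 3′ along the gene's strand: TERT, chr5:1295186-1295271, minus strand, SLC7A5, an amino acid transporter, chr16:87869592-87869677, minus strand, SRM, spermidine synthase, chr1:11060172-11060257, minus strand, and TOMM20, a receptor for mitochondrial import, chr1:235128960-235129045, minus strand.
TERT: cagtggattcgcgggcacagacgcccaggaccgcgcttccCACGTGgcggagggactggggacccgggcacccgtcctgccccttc
SLC7A5: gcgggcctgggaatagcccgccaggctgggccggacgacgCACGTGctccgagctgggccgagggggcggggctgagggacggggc
SRM: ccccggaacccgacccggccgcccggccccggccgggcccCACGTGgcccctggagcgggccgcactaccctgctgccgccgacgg
TOMM20: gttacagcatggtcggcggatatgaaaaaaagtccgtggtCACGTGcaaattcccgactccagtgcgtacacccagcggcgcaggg

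An E-box stood in the window of 461 of 3473 genes that were lower (13.3%, Wilson 95% interval 12.2% to 14.4%), of 337 of 3875 that were higher (8.70%, 7.85% to 9.63%) and of 179 of 1979 that were not called (9.05%, 7.86% to 10.4%). Over all 27305 promoters of the table the share was 7.44%, and over the 9327 tested genes with a promoter 10.5%. Promoters were found for 81.6% of the 11430 tested protein-coding genes and for 66.4% of the 211 that fell at least 4-fold; tested genes on chromosome 8 did not enter these shares. Seen from the sequence, the 977 genes with an E-box had a median log2 change of -0.14 and 47.2% were lower, against 0.06 and 36.1% for the 8350 genes without. The motif was found in 19 of 41 MYC-activated genes (46.3%) and in 23 of 67 ribosome biogenesis genes (34.3%), but in 3 of 63 cytosolic ribosomal protein genes (4.76%), a list that was lower throughout. With only the 250 bases before the start, the shares were 29.3%, 16.4% and 4.76%. With an E-box at any listed start counted, these lists had 58.5%, 40.3% and 6.35%. Lower, higher and not called genes then had 16.5%, 10.8% and 11.2%. Median GC content of the promoters was 65.7% for lower and 65.0% for higher genes. The median number of CG pairs per 300 bases was 28 for lower and 25 for higher genes. Among genes changed at least 2-fold it was 28 for lower and 23 for higher. The E-box itself contains a CG pair, and its share at a like number of CG pairs was not tested. Split at a promoter GC content of 65%, the share above it was 14.9% for lower and 10.3% for higher genes, and below it 11.4% and 7.12%. A match is a description of the sequence, and binding was not measured.

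**Figure D4:**
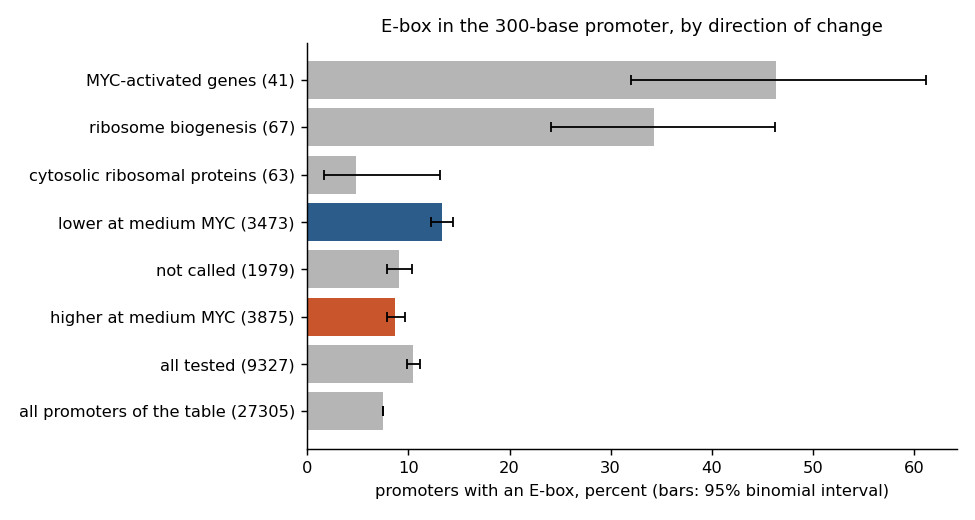
Percent of promoters (250 bases before to 50 after the start) that hold an E-box, by the call of the gene and for 3 lists, with the number of promoters in brackets and Wilson 95% intervals as bars; the whole table is drawn without an interval. Genes lower at medium MYC (13.3%) lie above those higher (8.70%) and not called (9.05%), the MYC-activated list reaches 46.3%, and cytosolic ribosomal proteins lie at 4.76%.

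Of 29 nucleotide synthesis genes 23 were lower and 6 higher, with a median of -0.96. PFAS, an enzyme of purine synthesis, had counts of 2824, 2669, 2621 and 2576 at high and 824, 754, 836 and 784 at medium MYC, IMPDH2 fell by 1.64 on the log2 scale and NME1, a nucleoside diphosphate kinase, fell by 1.93. Among the 6 that rose were RRM1, RRM2, TK1, TYMS and CTPS2. RRM1 and RRM2 are subunits of ribonucleotide reductase, TK1 and TYMS make thymidylate, and CTPS2 makes CTP. RRM2 had counts of 1414, 1425, 1468 and 1380.3 against 3021, 2993, 2933 and 2925 (log2 change 1.06, SE 0.03, limma adjusted p = 3.27e-12). TK1 rose by 1.04.

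Polyamine and one-carbon enzymes were lower in 18 of 25 and higher in 5, among them AZIN1, OAZ2, SAT1 and PAOX, with a median of -0.68. SRM fell from 1989.8, 1820.5, 1803 and 1777 to 348, 389, 452 and 397 (log2 change -2.22, SE 0.07, limma adjusted p = 3.45e-12). SAT1, which starts polyamine breakdown, moved the other way, from 197, 227, 223 and 218 to 767, 898, 869 and 891 (log2 change 1.98). ASS1, argininosuccinate synthase, fell further than any other member, from 254, 262, 239 and 234 to 13.6, 15.4, 19.3 and 14.8. Amino acid and nutrient transporters were lower in 16 of 24 and higher in 7, with a median of -0.74. SLC7A5, the light chain of the large neutral amino acid transporter, fell from 4571, 4368, 4193 and 4232 to 486, 468, 559 and 495 (log2 change -3.11), and its heavy chain SLC3A2 fell by 1.28. SLC38A5, a glutamine transporter, fell by 2.80 and SLC19A1, the folate carrier, fell by 2.04. The cystine transporter SLC7A11 rose instead, from 146, 138, 193 and 198 to 1729, 1668, 1339 and 1746, and SLC1A4 rose by 1.69.

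Mitochondrial genes were lower in each list, by amounts that differed between lists. Import and chaperone genes were lower in 30 of 31, with a median of -0.96, and 14 fell at least 2-fold. TRAP1, the mitochondrial HSP90, had counts of 3919, 3900.3, 3726 and 3751 at high and 806, 787, 843 and 748 at medium MYC, and TOMM20 had 2387, 2586, 2777 and 2723 and 776, 801, 753 and 755. Their log2 changes were -2.26 and -1.76, C1QBP fell by 1.82 and the chaperonin HSPD1 fell by 1.58. Mitochondrial ribosomal proteins were lower in 66 of 78 and higher in 4 (MRPL39, MRPL41, MRPL49 and MRPL53), with a median of -0.49. MRPL41 (0.28) lost its call without high MYC library 2 or 3 or medium MYC library 1, 2 or 3 (0.19 to 0.27) and without the mean trend (limma adjusted p = 0.0802). MRPL49 (0.12) lost it without high MYC library 1 or 2 or medium MYC library 1, 3 or 4 (0.09 to 0.13), with no filter and with DESeq2 (adjusted p = 0.0941). The 13 mRNAs encoded by mitochondrial DNA were all lower, with a median of -0.42 and none at 2-fold; MT-ND1 went from 40871 ± 4703 to 22682 ± 1577 and MT-CO1 from 131297 ± 7119.9 to 115034 ± 3484 (SD, n = 4 each). Nuclear genes of the respiratory chain were lower in 50 of 76 and higher in 8, with a median of -0.29, and 2 fell at least 2-fold, ATP5MC1 (-1.35) and UQCRH (-1.08).

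Glycolysis was divided: 11 of 24 genes were higher and 12 lower, with a median of -0.11. ENO2, the neuronal enolase, rose from 3.77, 11.2, 6.62 and 11.2 to 97.0, 86.5, 104 and 91.9, and SLC2A3, a glucose transporter, by 1.60. SLC16A1, a lactate exporter, fell from 2204, 2300, 2346 and 2350.4 to 748, 746, 643 and 734, and log2 changes were -1.55 for PFKM, -1.06 for LDHB and -0.93 for HK2. Fatty acid synthesis genes were lower in 8 of 16 and higher in 3 (ACSL1, ACSL5 and SLC25A1). FASN, fatty acid synthase, went from 12799.9, 12572, 11099.7 and 11519 to 4181, 4236, 5043 and 4217, ACACA, acetyl-CoA carboxylase, fell by 1.44 and SCD, which desaturates fatty acids, fell by 1.23. Cholesterol synthesis and uptake genes were even, 9 of 28 higher and 9 lower. HMGCS1 fell by 1.04 and STARD4, a cholesterol carrier, rose by 2.43.

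Cell cycle genes did not follow the biosynthetic lists. Of 48 mitosis genes 39 were higher and 4 lower (MAD2L1, BUB3, BUB1B and KNSTRN), with a median of 0.44. KNSTRN (-0.15) lost its call without high MYC library 1 or 3 or medium MYC library 1, 3 or 4 (-0.15 to -0.12), and also with quantile normalization, no filter, no mean trend, DESeq2 or thinned reads (adjusted p of 0.0509 to 0.0876). MKI67, the proliferation antigen, had counts of 7914, 7889, 8072 and 7741 at high and 16511, 16385, 16692 and 16719 at medium MYC, and TOP2A had 5309.7, 5585, 5812 and 5803 and 8311, 8111, 7735 and 8443. The groups did not overlap in either gene, with log2 changes of 1.07 and 0.53 (limma adjusted p = 4.92e-13 and 1.95e-08). Changes in this list were small, and 3 genes rose at least 2-fold, CDC25C (1.45), MKI67 and KIF2C (1.02). CDK1 was not called (log2 change 0.07, 95% interval -0.10 to 0.24). DNA replication genes were higher in 30 of 47 and lower in 8, with a median of 0.20; PCNA rose by 0.47 and CLSPN by 0.72, whereas POLD2 fell by 0.92 and RFC3 fell by 0.66.

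G1 regulators were higher in 15 of 28 and lower in 11. CDK2 had counts of 529, 521, 536 and 513 at high and 1922, 1919, 1960.3 and 1906 at medium MYC (log2 change 1.87, SE 0.04, limma adjusted p = 4.16e-14). CDK4 and CDK6, the partners of D cyclins, fell by 0.41 and 1.03, while CCND2 rose. Exons of CDK2, CDK4 and CDK6 overlap those of other genes. Among the inhibitors of these kinases CDKN1A rose by 0.42, CDKN1B from 19.6, 21.3, 17.7 and 14.5 to 77.2, 60.8, 48.1 and 70.6, and CDKN2B from 0.753, 0, 1.10 and 0 to 21.9, 19.7, 14.9 and 26.3, where it was at the floor at high MYC and at least 6.73-fold higher. Genes reported as repressed by MYC, to which these inhibitors belong, were higher in 13 of 17 and lower in 2 (KLF2 and ITGB1), with a median of 0.58. This list holds 2 genes at the floor in a group, so its count is in part a consequence of the filter. NDRG1 rose by 3.48 and GADD45B by 1.67, while KLF2 fell by 0.88 and ITGB1 fell by 0.13. The call for ITGB1 was lost when reads were thinned to the lowest depth (log2 change -0.10, limma adjusted p = 0.0642).

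Receptors that steer cell migration were among the largest rises. CCR7 (chromosome 17, 40553769 to 40565472), the receptor that guides lymphocytes to lymph nodes, had counts of 10.5, 10.1, 9.93 and 13.4 at high and 8133, 8263, 9062 and 8370.4 at medium MYC. The log2 change was 9.47 (SE 0.08, limma adjusted p = 2.01e-16), a 709-fold difference. Of the chemokine receptors 10 of 23 passed the filter and 8 were higher; CCR2 and CX3CR1 were not called. ACKR3 and CXCR5 passed through their level at medium MYC, so the count of rises is in part a consequence of the filter. ACKR3, a scavenging chemokine receptor, had at most 2 reads in a high MYC control and counts of 342, 318, 392 and 389.8 at medium MYC, at least 117-fold higher. CXCR5, the receptor for entry into B cell follicles, went from 9.04, 4.49, 4.41 and 0 to 131, 130.1, 169.8 and 134 and CXCR4 from 599, 591, 557 and 585 to 1304, 1274, 1246 and 1349.

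Chemokine ligands passed the filter in 9 of 24, mostly through their level at medium MYC, so that all 9 were higher is in part a consequence of the filter. CCL22, which attracts T cells, had counts of 252, 235, 196 and 225 at high MYC and 14586, 14903, 16179.7 and 14766 at medium MYC (log2 change 6.06, SE 0.06, limma adjusted p = 3.05e-16). CXCL10, a chemokine induced by interferons, went from 7.53, 4.49, 5.52 and 8.94 to 438, 392, 377 and 422. CXCL9 had at most 1 read in a high MYC control and was at least 142-fold higher. CCL2 was at 0 in every high MYC control and had counts of 74.1, 79.6, 95.4 and 108 at medium MYC, at least 29.1-fold higher. CCL3, CCL5 and CCL17 rose by 4.35, 4.02 and 4.44.

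Targets of EBNA2 and RBPJ were higher in 18 of 20 tested genes, 16 of them at least 2-fold, with a median of 2.96 and none lower. By limma at an unadjusted p under 0.05, by edgeR and by DESeq2 the number lower was also 0. At high MYC 2 members were at the floor and passed the filter through medium MYC. LTA, at 4.47 to 8.28 in the high MYC controls, also passed through its level at medium MYC. The count of rises is thus in part a consequence of the filter. RBPJ itself and DTX1, a Notch target, were not called. FCER2, the CD23 antigen, a long-known EBNA2 target, had counts of 1115, 1064, 1001 and 1119 at high and 4798, 4746, 5463 and 4778 at medium MYC. The groups were apart, with medium MYC library 3 the highest, and the log2 change was 2.20 (SE 0.05, limma adjusted p = 2.22e-13). CR2, the CD21 receptor that Epstein-Barr virus uses for entry, had no read in any high MYC control and counts of 89.7, 71.1, 84.9 and 87.0 at medium MYC, at least 27.1-fold higher. EBI3, a cytokine subunit first found as an Epstein-Barr virus induced gene, went from 50.5, 28.1, 37.5 and 41.4 to 1246, 1424, 1651 and 1361. RUNX3 rose by 2.67, SLAMF1 by 4.14, HES1 by 2.51, NRARP by 1.48, LTA by 4.85 and CD58 by 2.90.

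The sequence GTGGGAA, which RBPJ is known to bind, was searched in the same windows on both strands. Promoters of 3 genes that rose are shown, with the match in capitals, TTCCCAC being the same match on the other strand: EBI3, chr19:4229474-4229522, plus strand, FCER2, chr19:7702272-7702358, minus strand, and IRF4, a transcription factor of activated B cells, chr6:391694-391751, plus strand.
EBI3: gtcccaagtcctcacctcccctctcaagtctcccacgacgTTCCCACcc
FCER2: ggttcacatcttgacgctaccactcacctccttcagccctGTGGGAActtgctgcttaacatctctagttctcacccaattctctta
IRF4: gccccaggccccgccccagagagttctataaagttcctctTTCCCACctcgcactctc

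The shares for this sequence lay close together: it stood in 5.55% of promoters of genes that were higher, 5.67% of those lower and 6.01% of those not called, against 6.28% of all promoters in the table. Within the EBNA2 and RBPJ list 3 of 16 promoters held it (Wilson 95% interval 6.59% to 43.0%). Distal enhancers were not searched.

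NF-kappaB subunits, inhibitors and targets were higher in 29 of 31, of which 24 at least 2-fold, with a median of 2.48; NFKBIB was lower (-0.40). Among the subunits, NFKB2 had counts of 249, 259, 222 and 254 at high and 2310.4, 2324, 2449 and 2317 at medium MYC, NFKB1 rose by 1.33 and RELA by 0.34. Inhibitors rose with them, NFKBIA from 557 ± 14.4 to 3671 ± 119 (SD, n = 4 each) and TNFAIP3 by 3.89. TRAF1, a signalling adaptor and NF-kappaB target, went from 407, 375, 366 and 417 to 7326, 7658, 7881 and 7611 (log2 change 4.28, SE 0.05, limma adjusted p = 3.05e-16). ICAM1 rose by 3.61, CD83 by 4.26 and TNF by 3.59.

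Costimulatory and TNF family genes were higher in 23 of 30 and lower in 6, with a median of 1.44. The filter removed 7 of the 37 listed genes, 2 tested members were at the floor in 1 group, and CD80 passed through its level at medium MYC. The count of rises is thus in part a consequence of the filter. CD80 went from 5.27, 10.1, 3.31 and 6.71 to 654, 690, 724 and 641 and CD86, its relative as a ligand of CD28, from 322, 318, 285 and 285 to 1635, 1675, 1767 and 1706. CD40 rose by 2.28, CD274, the PD-L1 ligand, by 4.06 and TNFSF4, the OX40 ligand, by 5.60. Among the genes that fell were TNFRSF18 (-2.30) and TNFRSF21 (-1.43). Adhesion and migration genes were higher in 23 of 28, with a median of 1.35. The filter removed 4 of the 32 listed genes and 1 tested member was at the floor in 1 group, so this count is in part a consequence of the filter. FSCN1, the actin bundler fascin, went from 156, 154, 139 and 154 to 5615, 5674, 6573 and 5547, ZYX, zyxin, rose by 5.74, and LGALS1, galectin 1, from 277 ± 32.3 to 4427 ± 307 (SD, n = 4 each). CD44 went from 2341 ± 77.8 to 11997 ± 163 (SD, n = 4 each).

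Antigen presentation genes rose by smaller amounts. MHC class I genes were higher in 16 of 19 and lower in 1 (PDIA3), and class II genes in 18 of 20 and lower in 2 (RFXAP and CTSS), both lists with a median of 0.58. HLA-B went from 4648, 4626, 4346 and 4557 to 9263, 9243, 9923 and 9286 (log2 change 1.05), and HLA-C rose by 0.34. HLA-DRA rose by 0.74 and CTSH, a lysosomal protease, by 2.94. HLA genes are alike in sequence and differ between people from the reference, so single values are uncertain. Type I interferon-stimulated genes were higher in 35 of 38, 26 of them at least 2-fold, and lower in 1 (ISG20), with a median of 1.26. This list holds 1 gene at the floor in a group, so its count is in part a consequence of the filter. OAS3, a sensor of double-stranded RNA, had counts of 105, 103, 83.9 and 105 at high and 1168, 1162, 1319.7 and 1155 at medium MYC; USP18 rose by 3.61, IFI27 by 3.49 and ISG15 by 0.85.

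B cell identity genes stayed expressed at both levels. PAX5, the factor that fixes B cell identity, rose by 0.38 (counts of 5199, 4953, 5071 and 4969 at high and 6628, 6324, 6790.2 and 6510 at medium MYC), MS4A1 by 0.96 and CD22 by 1.28. CD79A and CD79B, the signalling chains of the B cell receptor, were called lower by 0.12 and 0.11, but these calls were lost under several alternatives. CD79A lost its call without high MYC library 1, 2 or 4 or medium MYC library 1, 2 or 4 (log2 changes -0.13 to -0.09), and CD79B without high MYC library 1 or 2 or medium MYC library 1, 2 or 4 (-0.10 to -0.08). Quantile normalization, no filter and no mean trend ended both calls (limma adjusted p of 0.0531 to 0.107), and DESeq2 (adjusted p = 0.0503) and thinned reads (limma adjusted p = 0.0575) that of CD79B. B cell receptor signalling genes were higher in 25 of 33 and lower in 8, with a median of 0.78. This list holds 1 gene at the floor in a group, so its count is in part a consequence of the filter. The kinase FYN rose by 2.28 and LYN by 1.07, whereas BTK fell by 0.37 and CD81 fell by 0.59. Transcription factors of B cells were higher in 15 of 27 and lower in 7. IRF4 went from 2046, 2017, 2056 and 2026 to 10758, 10542, 11033 and 10295 (log2 change 2.39, limma adjusted p = 1.38e-15), ID2 rose by 3.99 and BATF by 2.77, while TCF3, which ID proteins inhibit, fell by 1.17 and BCL11A fell by 1.11.

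Germinal centre genes went both ways, 11 of 24 higher and 12 lower. TCL1A fell from 2827, 2753, 2556 and 2519 to 526, 582, 609 and 579 and MME, the CD10 antigen, fell by 2.02; GCSAM rose from 223, 259, 232 and 232 to 2837, 3028, 3022 and 2989 and BASP1 by 3.66. Plasma cell genes were lower in 13 of 19 and higher in 5 (IRF4, SEC11C, SLAMF7, ELL2 and POU2AF1), with a median of -0.71. JCHAIN, which joins IgA and IgM, had counts of 6778, 7409, 8301 and 7981 at high and 685, 733, 587 and 649.9 at medium MYC (log2 change -3.52, SE 0.07, limma adjusted p = 6.52e-14). DERL3, of ER-associated degradation, was 5.65-fold lower at medium MYC. The log2 change was -1.77 for XBP1, the factor of secretory expansion, -2.43 for MZB1 and -1.81 for SDC1, the CD138 antigen. ER chaperone and unfolded protein response genes were lower in 23 of 33 and higher in 9, with a median of -0.33, and HSPA5, the ER chaperone BiP, fell from 5019.6 ± 147 to 2988 ± 95.2 (SD, n = 4 each).

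In the BCL2 family 12 of 18 were higher and 4 lower (HRK, BIK, BMF and BAK1). BAK1 (-0.13) lost its call without any of the high MYC libraries or medium MYC library 2 or 4 (-0.13 to -0.10), and also with equal library totals, quantile normalization, no filter, no mean trend, DESeq2 or thinned reads (adjusted p of 0.0507 to 0.0927). BCL2 had counts of 173, 201, 189.8 and 172 at high and 1365, 1359, 1302 and 1439 at medium MYC, and BCL2A1, an NF-kappaB target, had 12.1, 18.0, 8.83 and 22.4 and 1022, 1035, 996 and 1057. BCL2L14 was at the floor at high MYC and at least 27.3-fold higher at medium MYC. Both survival and death genes rose: BCL2L1 and MCL1, which protect cells, by 1.78 and 0.22, and BCL2L11 and BAX, which promote death, by 1.31 and 0.49. Of the death promoters HRK and BIK, which were lower, HRK fell by 1.50 and BIK fell by 1.00. Targets of p53 were higher in 17 of 27 and lower in 4 (SESN1, AEN, CCNG1 and TRIAP1), with a median of 0.33. FAS, the death receptor, rose by 3.01 and CD82 by 3.15, while MDM2 was not called (log2 change 0.05, 95% interval -0.06 to 0.15). Lysosome and V-ATPase genes were higher in 29 of 46 and lower in 9, with a median of 0.23; SMPD1, acid sphingomyelinase, rose by 2.49 and GAA, acid glucosidase, fell by 1.78.

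Genes known to respond to oestrogen in breast cells were examined because the medium MYC controls contained β-estradiol. Of 18 such genes 9 passed the filter, with 4 higher (GREB1, RARA, SIAH2 and IGFBP4) and 4 lower (ESR2, MYB, XBP1 and CTSD). ESR1, the oestrogen receptor alpha, had counts of 668, 603, 597 and 630.3 at high and 558, 628, 621 and 624 at medium MYC and was not called. IGFBP4 rose from 22.6, 22.5, 15.5 and 20.1 to 552, 497, 582 and 481. Of the 12 epithelial, stromal and erythroid markers 4 were at 0 in all 8 libraries and 4 passed the filter. CDH1, E-cadherin, went from 0.753, 0, 0 and 0 to 51.1, 59.1, 64.8 and 46.8, COL1A1 rose by 4.39 and PDGFRB by 1.82, while EPCAM fell by 2.23; their summed level was 186.8 to 198.7 at high and 641.7 to 725.1 at medium MYC. The part of other cells in these values was not tested.

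By class of gene, protein-coding genes were higher in 41.5% and lower in 37.3% of 11430, long noncoding genes in 25.4% and 32.8% of 1499, and pseudogenes in 20.5% and 36.7% of 611.

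The same contrast with 100 nM IMP1088 in both groups used the other 8 libraries. Of the 10294 genes called in controls 10064 (97.8%) had the same sign with the inhibitor, and of the 3259 called at least 2-fold 3182 were also called in the same direction there. As background, 10655 of the 13686 tested genes were called in either direction with the inhibitor. Across genes the log2 changes correlated at r = 0.958, a description, since genes are not independent replicates. The difference between the contrasts was called for 1181 genes (8.63%), 732 more positive and 449 more negative with the inhibitor, with a median size of 0.35. MYC itself differed by -5.04 in controls and -5.10 with the inhibitor (limma adjusted p of the difference = 0.606). CCR7, TERT and NPM1 likewise had changes of 9.23, -4.30 and -1.44 with the inhibitor.

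Among genes with a mean of at least 50, ALDH1L2 and ASS1 had the largest differences. ALDH1L2, a mitochondrial folate enzyme, had a log2 change of -1.93 in controls and 1.30 with the inhibitor, a difference of 3.24 (limma adjusted p = 9.89e-11). ASS1 had -3.90 and -0.86, and PSAT1, of serine synthesis, -1.38 and 0.63. Among genes that fell in controls, SLC7A5 and HSPA5 went from -3.11 and -0.75 to -2.23 and 0.49. As a list, ATF4 target genes, which answer amino acid and ER stress, had 17 of 28 lower and 9 higher in controls with a median of -0.63, and a median of 0.34 with the inhibitor. ER chaperone genes had medians of -0.33 and 0.22. The polyamine and one-carbon list had -0.68 and -0.54. In the other direction TRAF5 had 2.97 in controls and 1.42 with the inhibitor, CDK5R1 5.14 and 3.61, F2RL3 1.05 and -0.48, FLVCR2 6.47 and 4.92, and ARHGEF17 1.77 and 0.75. FCRL4 and CLEC17A, surface receptors of B cells, had 3.62 and 2.51 in controls and 5.04 and 4.11 with the inhibitor.

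**Figure D5:**
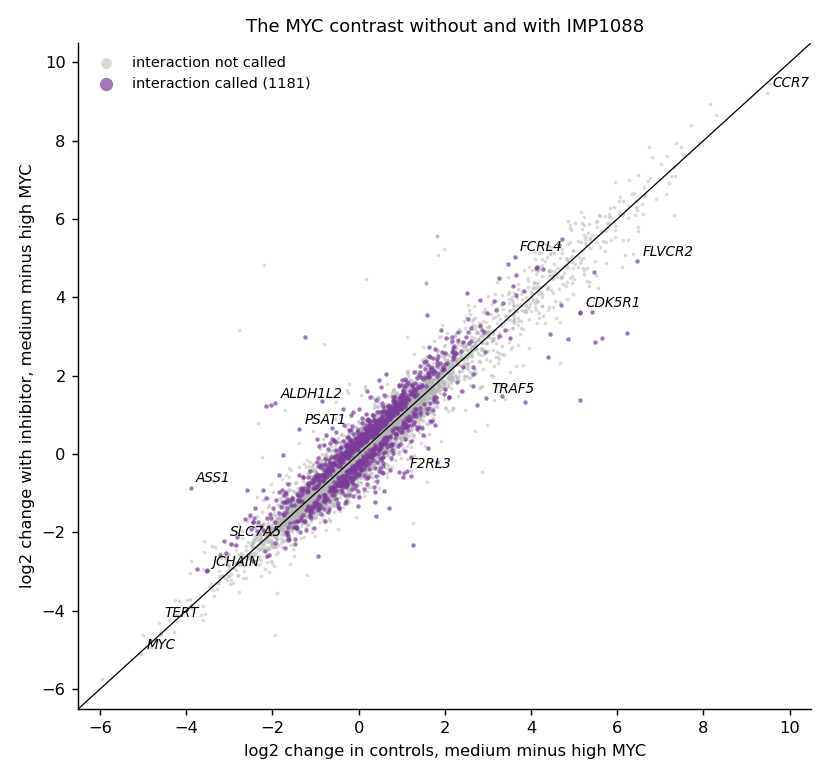
Log2 change (medium minus high MYC) with the inhibitor against that in controls for each tested gene; the line marks equal changes and purple genes had a called difference between the contrasts (1181). MYC, TERT and CCR7 lie near the line, while ALDH1L2, ASS1 and PSAT1 lie above it and TRAF5, CDK5R1 and F2RL3 below.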

How the data were processed

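RNA of P493-6 cells, in 16 libraries, was isolated with a QIAGEN miRNeasy kit, turned into cDNA with a Nugen kit and read on an Illumina HiSeq, per the labels' protocols. The submitters' processing notes name STAR 2.5.2a, RSEM 1.2.31, DESeq2 1.16.1 and the build GRCh38; gene annotation, use of strand and any filter are not given in the sources used here. The authors deposited a signal of normalized counts for 58051 Ensembl identifiers. Every value above 0 was a whole multiple of its library's smallest value (tolerance 0.001), so reads were recovered; errors and floors from them cover counting error only. Symbols came from a table of gene names (56948 matched) and positions from GENCODE 29 on GRCh38 by identifier (57447 matched).

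Log2 of the deposited value plus 1 was tested with limma 3.58.1 in R 4.3.3 over the 8 control libraries, with a mean trend and Benjamini-Hochberg adjustment, for genes with a mean of at least 10; called means an adjusted p-value under 0.05, two-sided. Fold changes on this scale understate the change of low genes. The contrast under IMP1088 came from a fit of the 8 inhibitor libraries, and the difference between contrasts from a fit of all 16 libraries, both with the same genes. Scripts were tested on simulated data. The members and gene lists were chosen with earlier results of these data known, and lists share members. Named genes are MYC and a short list of known MYC, EBNA2 and B cell genes, the 10 largest called changes in each direction with a mean of at least 50 and no overlap of groups, up to 5 genes in each direction at the floor of 3 reads in the other group, per list up to 2 rises and 2 falls of largest size, and, with a mean of at least 50, the 5 largest called differences between contrasts in each direction; some of these are not reported here, and 91 of the 248 genes named were chosen after their values were seen. Alternatives covered scaling, pseudocounts, filters, the mean trend, all 16 libraries, a replicate block, single libraries left out, and edgeR 4.0.16 and DESeq2 1.42.0 on recovered reads. Of the genes named, 103 share exon bases with another gene in GENCODE 29 on either strand, and their values are uncertain because the use of strand is not stated: ACSL5, ALDH1L2, ARHGEF17, AZIN1, BAK1, BASP1, BCL2L1, BCL2L11, BMF, BOP1, BUB1B, BZW2, C1QBP, CCL3, CCND2, CD22, CD44, CD79B, CD80, CD81, CD82, CDC25C, CDH1, CDK2, CDK4, CDK6, CDKN1A, CLSPN, CTSD, CXCR5, DANCR, DDN, DERL3, EIF2B2, EIF4G2, ELL2, ENSG00000254590, ENSG00000280211, ESR1, ESR2, FAS, FLVCR2, GAS5, GCSAM, HARS1, HK2, HLA-B, HLA-C, HMGCS1, HSPD1, ICAM1, ID2, IMPDH2, ISG15, ITGB1, JCHAIN, KIF2C, LARS1, LDHB, MAD2L1, MAX, MCL1, MDM2, MME, MNT, MRPL49, MRPL53, MXD1, MXD3, MXI1, MYADML2, MYB, MYCL, NFKBIB, NME1, NOP16, NVL, OAZ2, PAOX, PAX5, PDIA3, PFKM, PLD6, POLR3G, POU2AF1, RARA, RELA, RRM1, RRM2, SESN1, SIAH2, SLC16A1, SLC19A1, SLC7A11, SLC7A5, STARD4, TCL1A, TNFAIP3, TRAP1, TUBB3, TYMS, WARS1 and ZYX. Near-identical copies (ribosomal protein, HLA and tubulin genes among them) are uncertain too, because the counting may have divided their reads.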

Additional observations from a re-analysis of the deposited data

Results flagged for a closer look

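Within the 4 libraries of a group, 1 value lay far from the other 3 in 46 of 493 cases examined over the named genes, where the gap to the nearest value exceeded Dixon's 95% critical value as a share of the group's range. For normally distributed values chance alone gives about 1 such case in 20 groups. A group at 0 in all but 1 library is always flagged, so this rate does not hold for such groups. Medium MYC library 3 was the value apart in 16 of them and the other 7 libraries in 2 to 6 each. High MYC library 1 was high for ACKR3 (1.51), CDH1 (0.753) and ZC3H12C (0.753). High MYC library 2 was high for EGOT (1.12) and FLVCR2 (1.12) and low for ACSL5 (615). High MYC library 3 was high for CDC25C (81.7), NCL (17395) and NPM1 (19037) and low for FSCN1 (139) and OAS3 (83.9). High MYC library 4 was high for BAK1 (487), BCL2L14 (1.12), CCR2 (114) and TRAF5 (58.1) and low for LTA (4.47). Medium MYC library 1 was high for SDC1 (37.6) and TERT (27.1) and low for BMF (371) and ESR1 (558). Medium MYC library 2 was high for NPM1 (6479) and SLC38A5 (143) and low for CCND2 (13478) and TRIAP1 (176). Medium MYC library 3 was high for CD81 (960.0), CXCR5 (169.8), ENTPD2 (1409.9), FASN (5043), FCER2 (5463), FSCN1 (6573), HLA-B (9923), NFKB2 (2449), OAS3 (1319.7), TCF3 (3039) and VARS1 (1042) and low for AZIN1 (2374), CDK1 (961), LYN (3844), SLC16A1 (643) and STARD4 (4521). Medium MYC library 4 was high for EPCAM (21.3), MYADML2 (0.821), SCD (8039.7) and TYMS (2342) and low for MXD3 (119.8) and ODC1 (1137). Values in brackets are normalized counts, and those under 2 are 1 or 2 reads in a library whose group was otherwise at 0. Left out of the fit, the library apart changed the call or direction of 2 of these genes, BAK1 (-0.12, limma adjusted p = 0.0898 without high MYC library 4) and ESR1, which was not called with or without medium MYC library 1.

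The difference between MYC levels changed with the inhibitor, by the interaction term of the limma fit, for 65 of the 248 named genes, some of which were named for this difference, against 8.63% of all tested genes. Those that the naming rule selected for this, with the difference in log2 change (inhibitor minus controls), were ASS1 (3.04), FLVCR2 (-1.55), TRAF5 (-1.55), F2RL3 (-1.53), CDK5R1 (-1.53), ARHGEF17 (-1.02), ALDH1L2 (3.24), PSAT1 (2.01), CLEC17A (1.59) and FCRL4 (1.42).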

How the results depend on the processing

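Over 21 alternatives for the contrast of controls, 234 of 248 named genes kept their direction and their side of the threshold wherever they were tested; a mean of at least 100 left 208 of them. The number called ran from 9932 to 10216 with single libraries left out and was 9977 with the replicate block, 10313 with edgeR and 9810 with DESeq2. At least 2-fold changes (3259) ran from 3234 to 3269 with single libraries left out. Filters moved these counts because they change which genes are tested: no filter gave 5141 at least 2-fold (3187 higher and 1954 lower), and a mean of at least 100 gave 1822 (876 higher and 946 lower), where the more frequent direction also turned. Genes that were not called and changed sign were CCR2 (-0.0681 with quantile normalization and -0.0126 with thinned reads), CDK1 (-0.000498 to 0.136 with single libraries left out), DTX1 (-0.0696 to 0.00290) and ESR1 (-0.0602 to 0.00166). The change of MYC stayed between -5.07 and -5.00 with single libraries left out. Of 44 list medians 43 kept their sign wherever a median could be had (the markers of T and NK cells had none at a mean of at least 100). The median of the oestrogen-responsive genes went to 0.00166 without medium MYC library 1. In size, 40 of 923 medians compared moved beyond the spread between libraries, 15 of them at a mean of at least 100 and 12 with quantile normalization. The largest of the 923 shifts was 6.57 on the log2 scale. A mean of at least 100 also changes which members enter a median, and a median can shift for that reason. With only the 250 bases before the start, 11.3% of promoters of lower genes held an E-box, and the shares of the MYC-activated and ribosome biogenesis lists fell to 29.3% and 16.4%.

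Residual correlations gave no clear pairing of the controls by replicate number. Same-numbered controls had residual correlations of -0.05, 0.01, -0.10 and 0.24, and 1 of the 4 correlated best with its own number. So few values cannot decide whether the libraries were paired. The block ended the calls of BAK1, CD79A, CD79B, EIF2B2 and KNSTRN (limma adjusted p of 0.0576 to 0.0868). With the replicate block the number of genes whose contrast changed with the inhibitor was 835 in place of 1181; with single libraries left out it ran from 1016 to 1346, the highest without medium MYC library 3. Thinning reads to the lowest depth was added after seeing the data and gave 10158 genes. Depth limits genes near the floor of 3 reads, where a fold is a lower bound and a change in the high MYC controls was not detectable.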
